A study of Homo sapiens with 6 samples.

Results

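The 48 genes described here encode the machinery that makes ribosomes, from RNA polymerase I to the factors that assemble both ribosomal subunits. They were chosen by gene symbol from a fixed list, which was drawn up with earlier results of these data known. The rule itself used no measured value. Each of the 48 symbols matched 1 of the 53826 entries in each library. Of these, 47 reached 5 TPM, the length-corrected share of the library that each gene's transcripts take, in 1 library or more and are called the members below. The other, PPAN, a large subunit factor, lay at the floor of 1 TPM in all 6 libraries and was left out of counts and medians. The read-through entry PPAN-P2RY11 held 26.4 TPM in PK-1 Control and 47.3 TPM in Panc-1 Control.

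The libraries came from a pair of established human pancreatic ductal adenocarcinoma lines, PK-1 and Panc-1. From each line, RNA was sequenced from a control culture and from cultures exposed for 24 h to LY2955303 (RARγi-1) or MM11253 (RARγi-2), small-molecule antagonists of retinoic acid receptor γ that differ in structure. Each of the 6 conditions has 1 library of poly(A)-selected RNA, made with a stranded kit, so no value has a replicate error and no p-value is given. The vehicle of the controls and the doses used for RNA-seq are not given in the sources used here, and the treatment entry reads RARγi-1 for both libraries titled RARγi-2, which were grouped by title. Here PK-1 RARγi-1, for example, means the PK-1 library treated with RARγi-1 against PK-1 Control.

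In the nucleolus, RNA polymerase I transcribes ribosomal DNA into a long precursor, with the factor UBTF on the DNA and RRN3 bringing the polymerase to the promoter. Small nucleolar ribonucleoproteins (snoRNPs) then modify the precursor, and processing factors cut and fold it into the small and large subunits. Growing cells spend much of their synthesis on this pathway. MYC and related factors bind the E-box, CACGTG, at many of its genes.

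Because most members were lower in treated PK-1, their promoters were searched for the E-box. RefSeq windows of GRCh38.p14, from 250 bases before to 50 bases after each annotated start, were given for 42 of the 48 genes. The motif CACGTG reads the same on both strands. It was found in 19 of these 42 genes, or 45.2%, compared with 12.7% of 9786 entries of at least 5 TPM and 8.77% of all 27305 genes with a window. In 18 of the 19 it lay within 40 bases of the start. This is 42.9% of the 42 genes, beside 4.23% of the 9786 entries and 2.67% of all 27305 genes. The sequences below run from 60 bases before to 30 bases after the start, 5′ to 3′, with CACGTG in capitals. They show the motif in 4 members that were lower after treatment in PK-1 (UTP20, WDR43, RRP9 and MRTO4), in FBL, whose level differed most between the control libraries, and in NOP10, which was higher in all treated libraries. DKC1 and DDX10, in which the responses of the cell lines had opposite signs, hold no CACGTG in their windows and are shown beside them. Of the other members with opposite signs, RRP9, PNO1, PES1 and DDX21 hold the motif, RRN3 does not and RRP12 had no window.
UTP20, chr12:101280045-101280134, plus strand: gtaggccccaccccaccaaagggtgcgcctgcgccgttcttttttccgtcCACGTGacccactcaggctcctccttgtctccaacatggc
WDR43, chr2:28894607-28894696, plus strand: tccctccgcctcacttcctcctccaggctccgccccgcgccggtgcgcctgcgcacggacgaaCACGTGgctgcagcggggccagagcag
RRP9, chr3:51941875-51941964, minus strand: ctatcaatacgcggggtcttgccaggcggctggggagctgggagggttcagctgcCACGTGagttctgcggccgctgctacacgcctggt
MRTO4, chr1:19251745-19251834, plus strand: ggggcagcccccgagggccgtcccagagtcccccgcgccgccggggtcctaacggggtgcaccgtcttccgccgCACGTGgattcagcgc
FBL, chr19:39846350-39846439, minus strand: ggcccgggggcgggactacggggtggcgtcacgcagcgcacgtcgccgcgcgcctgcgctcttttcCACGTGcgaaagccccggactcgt
NOP10, chr15:34343107-34343196, minus strand: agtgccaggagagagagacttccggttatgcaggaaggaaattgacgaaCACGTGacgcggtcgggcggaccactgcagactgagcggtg
DKC1, chrX:154762804-154762893, plus strand: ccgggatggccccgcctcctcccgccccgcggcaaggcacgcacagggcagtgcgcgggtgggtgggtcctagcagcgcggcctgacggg
DDX10, chr11:108665009-108665098, plus strand: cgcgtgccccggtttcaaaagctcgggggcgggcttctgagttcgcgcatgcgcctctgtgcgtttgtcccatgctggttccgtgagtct
The motif began at position -10 in UTP20, 4 in WDR43, -5 in RRP9, 15 in MRTO4, 7 in FBL and -11 in NOP10, counted from 1 at the start with no position 0. In PK-1 RARγi-2, the median log2 fold change was -1.33 for 19 members with the motif and -1.26 for 22 without it. The same medians in Panc-1 RARγi-2 were -0.06 and -0.26. For the response of PK-1 minus that of Panc-1 they were -0.48 and -0.38 with RARγi-1, and -1.24 and -0.996 with RARγi-2. For this difference with RARγi-2, 14 of 19 members with the motif and 9 of 22 without it were below -1, beside 7.70% of entries. With RARγi-1 they were 0 and 2 (3.75% of entries). For the fold change in PK-1 itself, 14 of 19 and 17 of 22 were below -1 with RARγi-2 (13.5% of entries). In PK-1 RARγi-1 they were 3 and 4 (5.20%), with medians of -0.63 and -0.64. In Panc-1 they were 1 and 0 with RARγi-1 (6.51%) and 1 and 2 with RARγi-2 (12.0%). Several members lay near -1, so these counts depend on the cut. These are descriptions without a test.

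All 47 members were well above the floor in both control libraries. Their levels ran from 22.2 TPM (UTP15) to 2620.3 TPM (NPM1) in PK-1 Control, with a median of 79.2 TPM, and from 16.6 TPM (UTP15) to 7839.6 TPM (FBL) in Panc-1 Control, with a median of 93.9 TPM. Most members began from a similar level. Panc-1 Control was more than 2-fold above PK-1 Control for 4 members (FBL, POLR1E, LTV1 and POLR1C), beside 17.3% of the 12412 entries tested, which are those that reached 5 TPM in any library. It was more than 2-fold below for 1 member, the RNA acetyltransferase NAT10, beside 16.1% of entries. LTV1 and NAT10 were named after their values were seen.

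The identity of the lines was checked by markers. KRT8, KRT18 and KRT19, keratins of ductal epithelium, lay between 1454 and 6408 TPM in the control libraries. KRT7, another ductal keratin, was at 5663 TPM in PK-1 Control and 4.19 TPM in Panc-1 Control, and EPCAM at 578.4 and 13.4 TPM, so the epithelial markers were uneven in Panc-1. CDH1 (E-cadherin) was at 170.1 TPM in PK-1 Control and at the floor in Panc-1 Control, whereas VIM (vimentin) was at 41.7 and 6291 TPM. All 4 fibroblast and both endothelial markers were at the floor in all 6 libraries, and of 4 leukocyte markers only CD68, which is also a lysosomal protein, was above it. CDKN2A was at the floor in all 6 libraries. The summed level of the 6 epithelial markers was lower in treated cells of both lines, at 22498, 13507 and 14127 TPM in the control, RARγi-1 and RARγi-2 libraries of PK-1 and 8419, 1784 and 1485 TPM in those of Panc-1. This sum is carried by keratins, while CDH1 was higher in treated PK-1, at 270.2 and 384.8 TPM, and EPCAM was higher in Panc-1 RARγi-1, at 19.4 TPM, and lower in Panc-1 RARγi-2, at 9.18 TPM. The summed level of the 4 mesenchymal markers was 48.8, 96.4 and 143.9 TPM in PK-1 and 6307, 4068 and 3976 TPM in Panc-1. This sum is carried by VIM. FN1 was at 5.15, 2.22 and 1.92 TPM in PK-1 and at the floor in Panc-1. ZEB1 and CDH2 were at the floor in PK-1. In Panc-1, ZEB1 was at 8.65, 14.5 and 10.9 TPM and CDH2 at 6.36, 3.55 and 2.63 TPM. The part of these markers in the results was not tested.

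A TPM value is a share of the library, so a lower value means a smaller share beside the other transcripts. The RNA per cell, the transcripts per cell and the number of cells cannot be read from these values. The TPM values keep no read counts, so the depth of each library is unknown and no counting interval can be given.

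In PK-1, members were lower after both inhibitors, and more so with RARγi-2. In PK-1 RARγi-1, 11 of 47 members were lower than control by more than 2-fold, beside 5.20% of all entries tested, and 1 was higher (9.91% of entries). In PK-1 RARγi-2, 36 members were lower by more than 2-fold, beside 13.5% of entries, and 1 was higher (12.9% of entries). The member more than 2-fold higher in both was DDX10. Counted by any amount, 45 of 47 members were lower in each of these comparisons, beside 38.4% and 47.7% of entries. The median log2 fold change of the members was -0.65 in PK-1 RARγi-1, where that of all entries was 0.13, and -1.34 in PK-1 RARγi-2, where that of all entries was 0.00. Both comparisons use the same control library, and 11 members were lower by more than 2-fold in both, beside 4.99% of entries. Past 1.5-fold, the members lower numbered 30 (12.3% of entries) and 42 (24.0% of entries).

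In Panc-1, the members differed less from control. In Panc-1 RARγi-1, 1 member was lower by more than 2-fold (6.51% of entries) and none was higher (7.86% of entries). In Panc-1 RARγi-2, 5 members were lower (12.0% of entries) and none was higher (9.02% of entries). These shares of members, at 2.13% and 10.6%, lay below those of all entries. The median log2 fold change of the members was -0.20 and -0.22, against 0.05 and 0.00 for all entries, and 38 and 34 members were below control by any amount, beside 42.1% and 49.3% of entries. UTP20 was the single member lower by more than 2-fold in both Panc-1 comparisons (6.13% of entries), which share a control. Past 1.5-fold, 8 and 10 members were lower, beside 14.3% and 22.0% of entries.

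**Figure D1:**
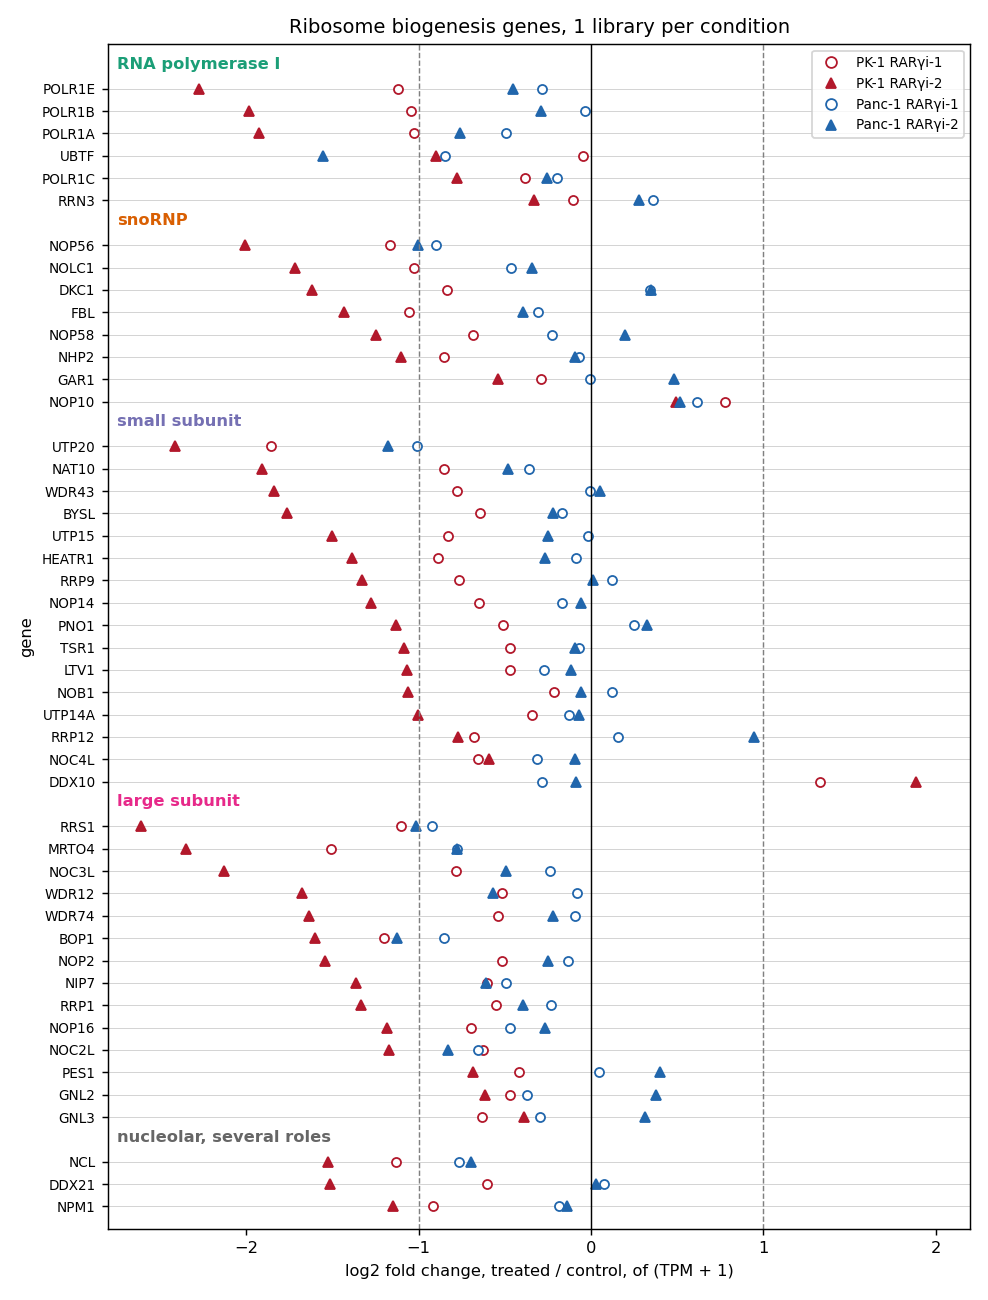
Each row is 1 of 47 genes, grouped by role, and the horizontal axis is the log2 fold change of (TPM + 1) in a treated library over the control library of the same line, with dashed lines at 2-fold. Red symbols are PK-1 and blue symbols Panc-1, open circles RARγi-1 and filled triangles RARγi-2. Most red triangles lie left of -1, and most blue symbols between -1 and 0.5.

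**Figure D2:**
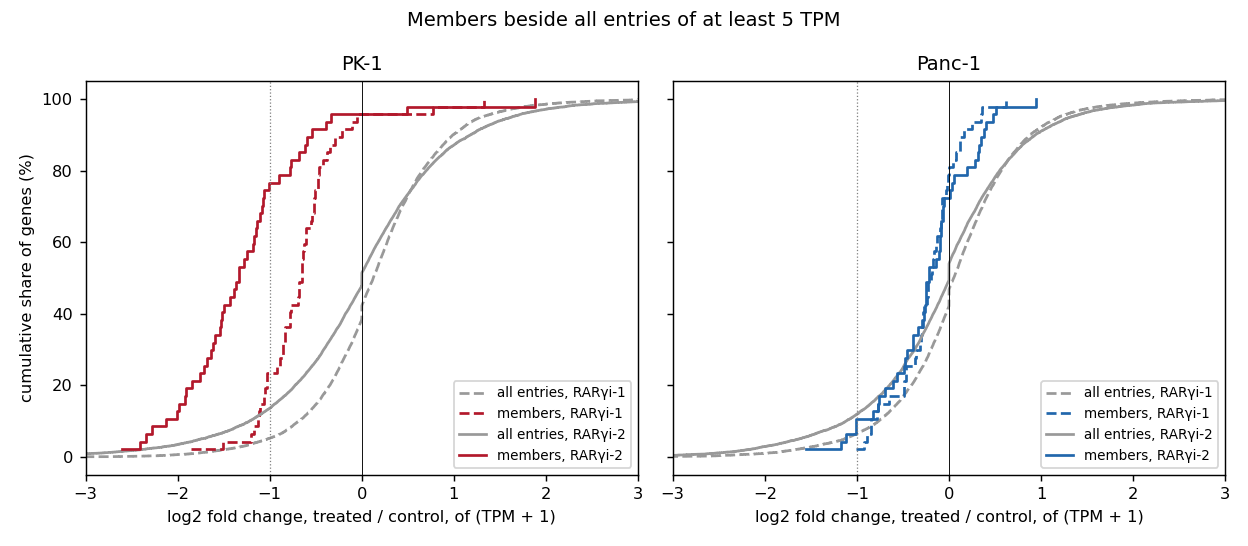
The vertical axis is the share of genes with a log2 fold change at or below the value on the horizontal axis, for the 47 members (coloured) and all 12412 entries tested (grey), with RARγi-1 dashed and RARγi-2 solid. In PK-1 the members' curves are shifted left to medians of -0.65 and -1.34, and in Panc-1 to -0.20 and -0.22.

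The comparison of PK-1 with Panc-1 was made gene by gene as the log2 fold change in PK-1 minus that in Panc-1. Its median over the members was -0.46 for RARγi-1, against 0.03 over all entries, and -1.08 for RARγi-2, against -0.02. With RARγi-1, 2 members (DKC1 and POLR1B) had a difference below -1, beside 3.75% of entries, and 1 (DDX10) had one above 1 (8.40% of entries). With RARγi-2, 28 members were below -1, beside 7.70% of entries, and again only DDX10 was above 1 (11.1% of entries). The difference was below 0 for 43 members with RARγi-1 (47.6% of entries) and 45 with RARγi-2 (50.9% of entries). Both differences rest on the same pair of control libraries.

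With no replicates, a rough scale of spread was taken from the treated libraries of each line. The scaled median absolute deviation of their difference over all entries, divided by the square root of 2, was 0.28 in PK-1 and 0.21 in Panc-1 on the log2 scale. This gives 0.49 for a difference between the lines, and it includes real differences between the inhibitors and leaves out variation of the controls. By this scale, 19 members with RARγi-1 and 42 with RARγi-2 were more than 1 spread lower in PK-1. Over all entries, the lower quartile of the difference between the lines lay at -0.31 for RARγi-1 and at -0.43 for RARγi-2. Both are smaller in size than 0.49, and how many entries passed that scale was not counted. For a fold change within a line, the same calculation of spread gives 0.39 in PK-1 and 0.30 in Panc-1. In Panc-1, 28 and 22 members were within this scale of control, whereas in PK-1 these were 6 and 1. The share of all entries within it was not counted.

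Of the 47 members, 32 were lower by more than 2-fold in PK-1 RARγi-2 and not in Panc-1 RARγi-2, beside 7.82% of entries. UBTF alone showed the reverse (6.24% of entries). Opposite signs in the lines, by any amount and with both inhibitors, were seen for 7 members that were lower in PK-1 and higher in Panc-1 (5.51% of entries), namely RRN3, DKC1, RRP9, PNO1, RRP12, PES1 and DDX21, and for DDX10 in the other direction (6.88% of entries). The signs of PES1 and DDX21 in Panc-1 RARγi-1 turned when libraries were rescaled by the median ratio. The value of RRN3 in Panc-1 is uncertain because of a pseudogene copy, as given below. With both inhibitors, RRP9, DDX21 and DDX10 were within the rough scale of 0.30 of control in Panc-1. Across the 47 members, the mean response of PK-1 and that of Panc-1 had a Pearson correlation of 0.49, which was 0.57 without DDX10 and NOP10, and 0.61 over all entries. These are descriptions across genes of the same libraries.

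**Figure D3:**
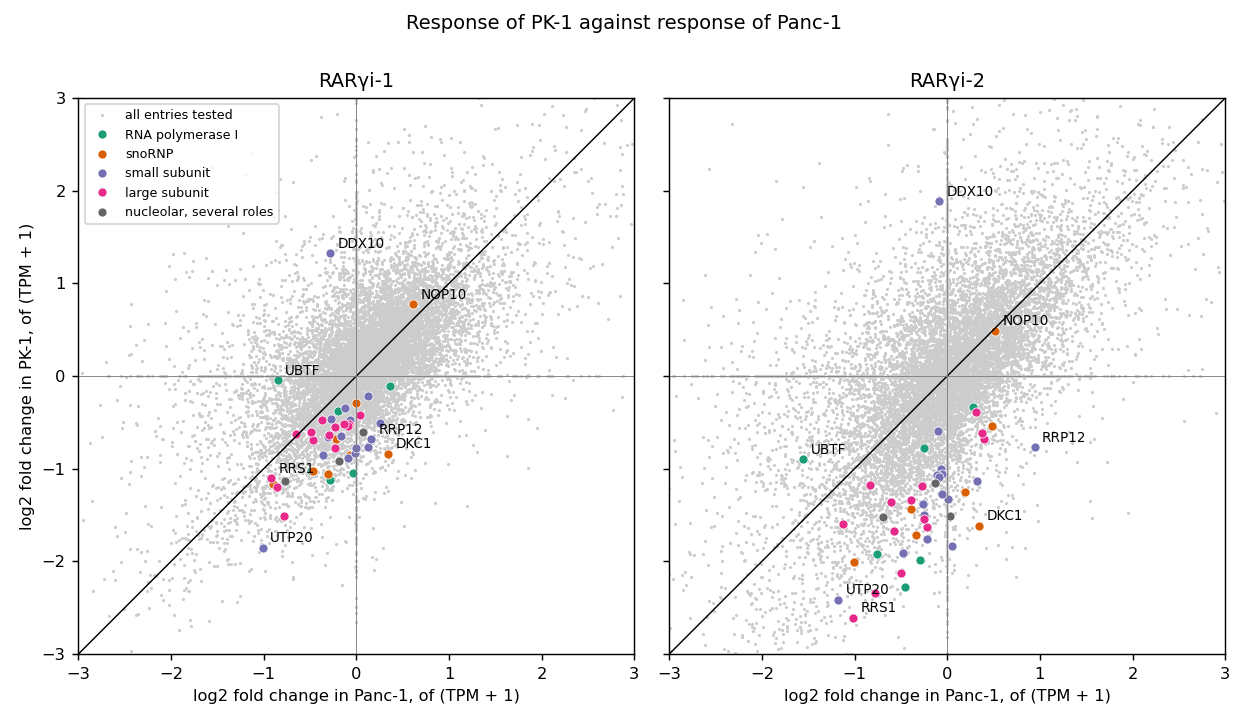
Each point is a gene, with its log2 fold change of (TPM + 1) in Panc-1 on the horizontal axis and in PK-1 on the vertical axis, for RARγi-1 (left) and RARγi-2 (right). Members are coloured by role, all entries tested are grey, and the diagonal marks an equal response; both axes end at 3 on either side of 0. With RARγi-2, 45 of 47 members lie below the diagonal, and DDX10 and UBTF lie above it.

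The genes for subunits of RNA polymerase I were among the members that were lower in PK-1. POLR1A, the largest catalytic subunit, had 37.9, 18.1 and 9.26 TPM in the control, RARγi-1 and RARγi-2 libraries of PK-1, the order kept below. In Panc-1 it had 28.8, 20.2 and 16.6 TPM. Its log2 fold changes were thus -1.03 and -1.92 in the first line and -0.49 and -0.76 in the second. The second catalytic subunit, POLR1B, differed more between the lines. It went from 25.8 TPM in PK-1 Control to 12.0 and 5.77 TPM (-1.05 and -1.99), while the Panc-1 libraries held 23.7, 23.2 and 19.2 TPM (-0.03 and -0.29).

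POLR1E, a subunit of the heterodimer that RNA polymerase I carries beside its core, began from 35.2 TPM in PK-1 Control and was at 15.7 and 6.49 TPM after treatment (-1.12 and -2.28). In Panc-1 it had 146.7, 120.4 and 106.8 TPM (-0.28 and -0.45), so that every Panc-1 library lay above every PK-1 library. POLR1C, which RNA polymerase I shares with RNA polymerase III, was less affected. Its PK-1 libraries held 34.2, 26.0 and 19.6 TPM (-0.38 and -0.78) and its Panc-1 libraries 71.9, 62.5 and 60.2 TPM (-0.20 and -0.25).

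The DNA-binding factor UBTF was the exception, being lower in Panc-1 by the larger factor. It was at 87.1, 48.0 and 29.0 TPM in Panc-1 (-0.85 and -1.55). In PK-1 it was at 53.4, 51.6 and 28.2 TPM (-0.05 and -0.90), so only the RARγi-2 library stood apart from control. RRN3, the initiation factor that joins the polymerase to the promoter, had 51.0, 47.3 and 40.3 TPM in PK-1 (-0.11 and -0.33) and 70.8, 91.1 and 86.2 TPM in Panc-1 (0.36 and 0.28). Its pseudogene copy RRN3P1 was listed at 2.64 TPM in Panc-1 Control and at 25.5 and 23.5 TPM in the treated Panc-1 libraries, and how reads were shared between the copies is not known. The value of RRN3 in Panc-1 is therefore uncertain.

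**Figure D4:**
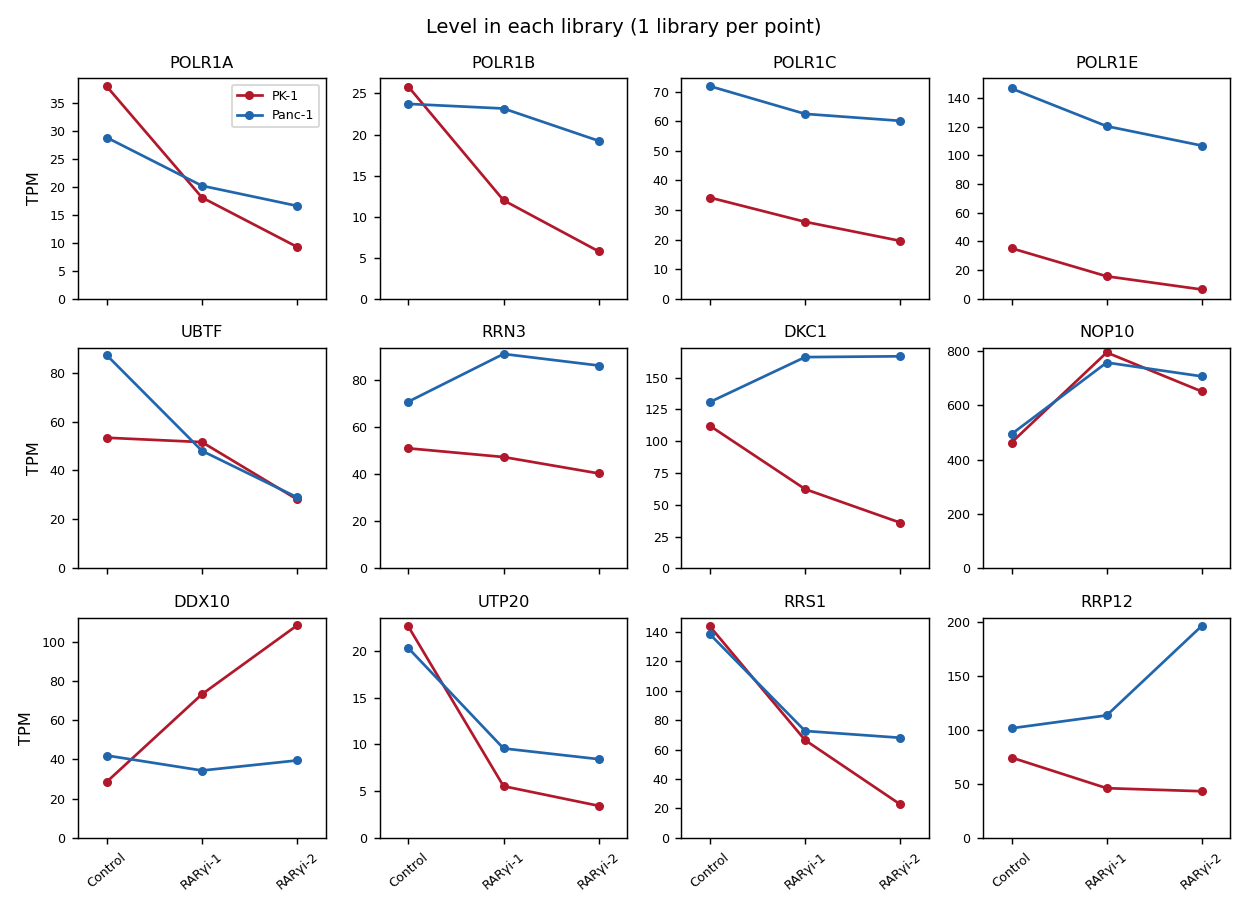
Each panel gives the level of 1 gene in TPM (vertical axis, from 0) in the control, RARγi-1 and RARγi-2 libraries of PK-1 (red) and Panc-1 (blue), with 1 library per point and lines that only join the points of a cell line. POLR1A, POLR1B and POLR1E step down in PK-1, UBTF steps down most in Panc-1, and DDX10 steps up in PK-1 from 28.6 to 108.4 TPM.

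The mRNAs of snoRNP proteins differed in how far Panc-1 followed PK-1. NOP56, a core protein of box C/D snoRNPs, which guide methylation of the precursor, had 491.9, 218.8 and 121.8 TPM in PK-1 (-1.17 and -2.0). It was also lower in Panc-1, with 409.0, 219.3 and 203.2 TPM (-0.90 and -1.01). Its partner NOP58 was at 161.2, 99.99 and 67.3 TPM in PK-1 (-0.68 and -1.25), and at 221.5, 189.5 and 253.6 TPM in Panc-1 (-0.22 and 0.19). In Panc-1 the RARγi-2 library thus had the highest level of NOP58 and the control lay between the treated libraries.

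FBL, fibrillarin, the methyltransferase of the same particle, had 558.8, 268.1 and 206.5 TPM in PK-1 (-1.06 and -1.43). In Panc-1 its level was higher by an order of magnitude, at 7839.6, 6333 and 5958 TPM (-0.31 and -0.40). Without FBL, the summed level of the members was 8225 TPM in PK-1 Control and 8753 TPM in Panc-1 Control. In the treated libraries it was 5222 and 3909 TPM (PK-1) and 7406 and 7645 TPM (Panc-1).

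The genes beside FBL shared its difference between the control libraries. In RefSeq order on GRCh38.p14, among genes of at least 5 TPM in a control library, FBL (chr19:39834458-39846379) lay in a run of 28 consecutive genes, from SIRT2 to AKT2 (chr19:38878555-40285345), each more than 2-fold higher in Panc-1 Control. The median ratio of Panc-1 Control to PK-1 Control in this run was 11.8, and that of FBL was 14.0. The genes on either side, HNRNPL and C19orf47, had log2 differences of 0.88 and -0.01. POLR1E lay in a run of 13 such genes on chromosome 9 with a median ratio of 4.15. The ratio of DDX10 itself was 1.47, below 2-fold, so it could not lie in such a run. These runs were examined after the values were seen, and DNA was not measured in these libraries.

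**Figure D5:**
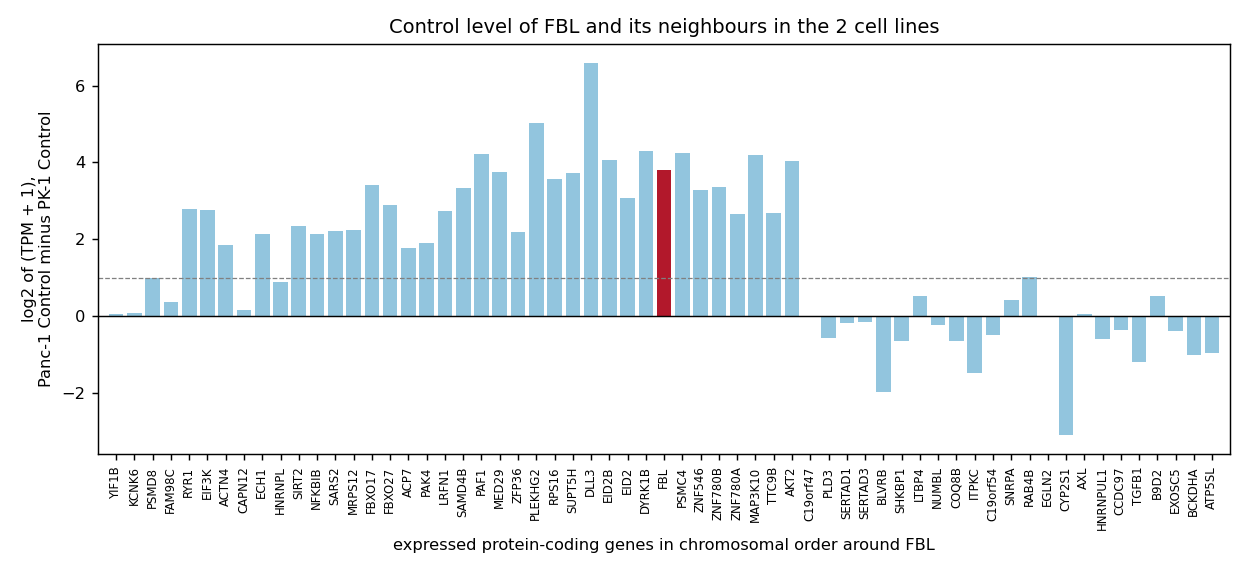
Bars give the log2 difference of (TPM + 1) between Panc-1 Control and PK-1 Control for FBL (red) and its expressed neighbours (blue) in chromosomal order, with a dashed line at 2-fold. The 28 bars from SIRT2 to AKT2 lie between 1.78 and 6.60.

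The box H/ACA snoRNPs, which guide pseudouridylation, have DKC1, GAR1, NHP2 and NOP10 as their core. DKC1, dyskerin, the pseudouridine synthase, had the most negative mean difference between the lines of all members, at -1.57. It was at 112.1, 62.3 and 35.9 TPM in PK-1 (-0.84 and -1.62) and at 130.8, 166.1 and 166.8 TPM in Panc-1 (0.34 and 0.35). The treated libraries thus lay on opposite sides of their controls. GAR1 was at 79.2, 64.6 and 54.1 TPM in PK-1 (-0.29 and -0.54) and at 82.8, 82.6 and 116.1 TPM in Panc-1 (0.00 and 0.48).

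NHP2, the RNA-binding subunit of this core, had 306.1, 169.1 and 142.2 TPM in PK-1 (-0.85 and -1.10) and 418.5, 398.0 and 391.5 TPM in Panc-1 (-0.07 and -0.10). NOP10, the smallest of the core proteins, went against the rest. It was higher in every treated library, with 462.9, 794.1 and 650.6 TPM in PK-1 (0.78 and 0.49) and 493.8, 757.0 and 706.3 TPM in Panc-1 (0.62 and 0.52). The mRNAs of the 4 proteins of this core therefore did not move as a unit in either line, and protein was not measured in these libraries. Over all 8 snoRNP members, including the chaperone NOLC1, the medians were -0.84 and -1.34 (PK-1) and -0.15 and 0.05 (Panc-1).

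The mRNAs of small subunit factors were mostly lower in PK-1 with RARγi-2. Of 16, 13 were lower by more than 2-fold in PK-1 RARγi-2, beside 13.5% of entries. The same held for 1 in PK-1 RARγi-1 (5.20% of entries), 1 in Panc-1 RARγi-1 (6.51%) and 1 in Panc-1 RARγi-2 (12.0%), shares near or below those of all entries. UTP20, a large scaffold protein of the processome that folds the small subunit, was the single member lower by more than 2-fold in all 4 comparisons, beside 2.19% of entries. It had 22.6, 5.53 and 3.43 TPM in PK-1 (-1.85 and -2.41) and 20.3, 9.56 and 8.41 TPM in Panc-1 (-1.01 and -1.18). Its levels in treated PK-1 are low enough that a pseudocount of 1 TPM understates the change, and the value in PK-1 RARγi-2 was -2.72 without one.

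WDR43, another processome protein, had 90.4, 52.2 and 24.6 TPM in PK-1 (-0.78 and -1.84). In Panc-1 it stayed near its control level, at 56.4, 56.1 and 58.6 TPM (-0.01 and 0.05). RRP9, a protein of the U3 snoRNP, was at 72.0, 42.0 and 28.0 TPM in PK-1 (-0.76 and -1.33) and at 102.6, 111.8 and 103.6 TPM in Panc-1 (0.12 and 0.01). Both genes were thus lower in treated PK-1 and close to control in treated Panc-1. RRP12, which takes part in the export of pre-ribosomes, was at 74.3, 46.0 and 43.1 TPM in PK-1 (-0.68 and -0.77). In Panc-1 it was at 101.4, 113.3 and 196.2 TPM (0.16 and 0.95), the RARγi-2 library standing above the others.

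The RNA helicase DDX10 was the single member higher than control by more than 2-fold in any comparison. PK-1 Control held 28.6 TPM, PK-1 RARγi-1 73.3 TPM and PK-1 RARγi-2 108.4 TPM (1.33 and 1.89). The Panc-1 libraries held 42.0, 34.4 and 39.5 TPM (-0.28 and -0.09). The PK-1 response therefore exceeded that of Panc-1 by 1.61 with RARγi-1 and 1.97 with RARγi-2, opposite in sign to those of the other factors of its group with the same inhibitor.

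Of the 14 factors of the large subunit, 3 were lower by more than 2-fold in PK-1 RARγi-1 (5.20% of entries) and 11 in PK-1 RARγi-2 (13.5%). In Panc-1, none was with RARγi-1 (6.51%) and 2 were with RARγi-2, a share near the 12.0% of all entries. PES1, BOP1 and WDR12 encode a complex that is required to process the RNA of the large subunit, and their mRNA responses were uneven. PES1 was at 140.9, 105.1 and 87.3 TPM in PK-1 (-0.42 and -0.68) and at 121.4, 125.2 and 160.4 TPM in Panc-1 (0.04 and 0.40). BOP1 was lower in both lines, with 128.8, 55.5 and 41.9 TPM in PK-1 (-1.20 and -1.60) and 239.7, 132.3 and 109.6 TPM in Panc-1 (-0.85 and -1.12). WDR12 followed RARγi-2 more than RARγi-1, at 52.1, 36.1 and 15.6 TPM in PK-1 (-0.51 and -1.68) and 66.2, 62.7 and 44.3 TPM in Panc-1 (-0.08 and -0.57). In PK-1 the mRNAs of all 3 partners were below control with both inhibitors.

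RRS1, a factor that brings the 5S ribonucleoprotein to the large subunit, was with UTP20 among the members furthest below control in PK-1 RARγi-2, and which of the pair was lower depended on the pseudocount. RRS1 was at 143.7, 66.4 and 22.7 TPM in PK-1 (-1.10 and -2.61). In Panc-1 it was at 138.3, 72.6 and 68.0 TPM (-0.92 and -1.01), so the log2 fold changes of the lines were close with RARγi-1 and apart with RARγi-2. MRTO4, which holds the place of the ribosomal stalk during assembly, was at 112.6, 39.0 and 21.4 TPM in PK-1 (-1.51 and -2.35) and at 213.5, 124.1 and 124.2 TPM in Panc-1 (-0.78 and -0.78).

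NOC3L, which acts in late nucleolar steps of the large subunit, had 42.0, 24.0 and 8.83 TPM in PK-1 (-0.78 and -2.13) and 48.5, 41.0 and 34.1 TPM in Panc-1 (-0.24 and -0.49). WDR74 had 89.8, 61.4 and 28.3 TPM in PK-1 (-0.54 and -1.63) and 113.2, 105.9 and 97.1 TPM in Panc-1 (-0.10 and -0.22). Both were thus lower mainly in PK-1 RARγi-2. NOC2L, the partner of NOC3L in the nucleolus, had similar log2 fold changes in the lines with RARγi-1, at 159.3, 103.1 and 70.1 TPM in PK-1 (-0.62 and -1.17) and 313.1, 198.6 and 175.7 TPM in Panc-1 (-0.65 and -0.83).

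The mRNAs of abundant nucleolar proteins were lower in PK-1 as well. NCL, nucleolin, had 765.1, 349.4 and 265.1 TPM in PK-1 (-1.13 and -1.53) and 1119, 657.0 and 689.9 TPM in Panc-1 (-0.77 and -0.70). NPM1, nucleophosmin, a histone chaperone and the most abundant member in PK-1, had 2620.3, 1386 and 1180.5 TPM in PK-1 (-0.92 and -1.15) and 2095, 1844 and 1906 TPM in Panc-1 (-0.18 and -0.14). The RNA helicase DDX21 had 181.4, 119.0 and 62.9 TPM in PK-1 (-0.60 and -1.51) and 139.4, 146.9 and 142.1 TPM in Panc-1 (0.08 and 0.03). With RARγi-1 the lines differed most for NPM1, by -0.73, and with RARγi-2 most for DDX21, by -1.54, while NCL had the smallest difference with each, at -0.36 and -0.83.

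The treated libraries were also set directly against each other, without the controls. In PK-1, 9 members were lower by more than 2-fold in the RARγi-2 library than in the RARγi-1 library, beside 4.79% of entries, and 44 of 47 were lower by any amount (62.9% of entries). The median difference on the log2 scale was -0.62, against -0.14 for all entries. In Panc-1, none was lower by more than 2-fold (2.19% of entries), 28 were lower by any amount (61.4% of entries), and the median difference was -0.05, against -0.09 for all entries. DDX10, GNL3 and NOC4L were the members at a higher level in PK-1 with RARγi-2 than with RARγi-1, and the last 2 were named after their values were seen. As doses were not stated, the inhibitors cannot be compared at matched doses.

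A further 88 ribosome biogenesis genes were listed to set beside the members. All were found, and 87 reached 5 TPM (TSR2 lay at the floor). In PK-1, 8 were lower by more than 2-fold with RARγi-1 and 33 with RARγi-2, which is 9.20% and 37.9% of them, beside 5.20% and 13.5% of entries. In Panc-1 this held for 2 and 2, or 2.3% each, below the 6.51% and 12.0% of entries. Of the 87, 0, 1, 2 and 4 were higher by more than 2-fold in the same order, beside 9.91%, 12.9%, 7.86% and 9.02% of entries. Their median log2 fold changes were -0.40 and -0.86 (PK-1) and -0.04 and -0.02 (Panc-1), and the median differences between the lines were -0.32 and -0.82.

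Among them, POLR1G (listed as CD3EAP), the partner of POLR1E in RNA polymerase I, had the lowest log2 fold changes. It was at 37.2, 8.38 and 3.12 TPM in PK-1 (-2.03 and -3.21) and at 23.6, 8.41 and 5.0 TPM in Panc-1 (-1.39 and -2.04), and thus far below control in both lines. TAF1D, a subunit of the promoter factor SL1, was at 75.2, 92.4 and 79.9 TPM in PK-1 and at 53.6, 121.7 and 137.2 TPM in Panc-1 (1.17 and 1.34). RIOK3, a kinase of late small subunit maturation, was higher in all treated libraries, at 44.1, 83.0 and 131.2 TPM in PK-1 and 32.0, 76.7 and 101.3 TPM in Panc-1. All genes of this paragraph were named after their values were seen.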

How the data were processed

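RNA of 6 cultures, 1 library per condition, was analysed. Libraries were made with the TruSeq Stranded mRNA kit. The authors deposited log2 values of TPM for 53826 entries per library, in which no value lies under 0, so that every value below 1 TPM stands at 1 TPM, and between 74.6% and 75.6% of entries lie there. The submitters' processing notes name the build hg38, while the aligner, counter and annotation are not given in the sources used here. Libraries were grouped by title.

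From the deposited log2 values, TPM was recomputed. A log2 fold change compares (TPM + 1) in a treated library with its own line's control, a scale that understates the change of low genes. A call means past 2-fold, without a test. Entries that reached 5 TPM in any library (12412) were the background. Alternatives changed the pseudocount, scaling, filter, threshold and handling of repeated symbols. The computation was tested on simulated data. Python 3.11.15, numpy 2.4.6, pandas 2.3.3 and matplotlib 3.10.9 were used.

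The members and lists were chosen with earlier results of these data known. Named members were all those of RNA polymerase I, of the box C/D and H/ACA cores and of the PES1, BOP1 and WDR12 complex; in each subunit group, the 3 with the most negative and the 1 with the most positive mean difference between the lines; each past 2-fold in a Panc-1 comparison or higher by more than 2-fold in any; and NCL, NPM1 and DDX21. LTV1, NAT10, PNO1, NOLC1, UTP15, GNL3 and NOC4L were named after their values were seen. Promoter windows and gene order came from RefSeq, GRCh38.p14. By Entrez ID, 95.1% of entries and all 48 genes matched RefSeq, and 42 had a window; where a gene had 2 windows, a motif in either was counted.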

Additional observations from a re-analysis of the deposited data

Results flagged for a closer look

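For 8 members, both inhibitors gave responses of one sign in PK-1 and of the other sign in Panc-1. The lines' responses were not tested against each other, since each condition has 1 library, and both inhibitors share the control of their line. In 7 of them the level was lower in treated PK-1 and higher in treated Panc-1, beside 5.51% of all entries. The mean log2 fold change of PK-1 minus that of Panc-1 was -1.57 for DKC1, -1.28 for RRP12, -1.11 for RRP9, -1.11 for PNO1, a small subunit factor, and -0.54 for RRN3. It was -1.11 for DDX21 and -0.77 for PES1, for both of which the value in Panc-1 RARγi-1 lay just above 0 and turned below 0 when libraries were rescaled by the median ratio (-0.001 and -0.03). For DDX10 it was 1.79, the level being higher in treated PK-1 and lower in treated Panc-1, beside 6.88% of entries. In Panc-1, only DKC1 was past the rough scale of 0.30 with both inhibitors (0.34 and 0.35). RRP9 (0.12 and 0.01), DDX21 (0.08 and 0.03) and DDX10 (-0.28 and -0.09) were within it with both. RRN3, PNO1, RRP12 and PES1 were within it with 1 inhibitor. The value of RRN3 in Panc-1 is uncertain, as how reads were shared with its pseudogene copy RRN3P1 is not known. PNO1 had 64.7, 45.2 and 29.0 TPM in PK-1 Control, RARγi-1 and RARγi-2, and 69.0, 82.3 and 86.6 TPM in Panc-1.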

How the results depend on the processing

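No value past 2-fold changed sign. Values near 0 in Panc-1 RARγi-1 did, those of PES1 (0.04 to -0.03) and DDX21 (0.08 to -0.001) under rescaling by the median ratio, which takes both out of the 7 members lower in PK-1 and higher in Panc-1, and that of GAR1 (-0.005 to 0.0003) under rescaling without the 50 highest entries. Of 487 alternative values of medians and counts, 444 stayed within the limits set for the main value and 43 moved; of 1044 values of single members, 1035 stayed and 9 moved. No paired analysis was possible because each condition has 1 library, and for the same reason no library could be left out. The median log2 fold change of the members ranged from -0.75 to -0.61 in PK-1 RARγi-1, from -1.37 to -1.20 in PK-1 RARγi-2, from -0.27 to -0.19 in Panc-1 RARγi-1 and from -0.23 to -0.21 in Panc-1 RARγi-2. The median difference between the lines ranged from -0.50 to -0.42 with RARγi-1 and from -1.12 to -0.97 with RARγi-2. Rescaling moved the median of all entries by 0.09 on the log2 scale at most.

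The counts depended on the threshold. Past 1.5-fold, 30 members were lower in PK-1 RARγi-1 (12.3% of entries), 8 in Panc-1 RARγi-1 (14.3%) and 10 in Panc-1 RARγi-2 (22.0%), and 2, 1 and 1 were higher. The count for PK-1 RARγi-2 was 42 (24.0%). Past 3-fold, the members lower were 1 in PK-1 RARγi-1 (1.68%), 16 in PK-1 RARγi-2 (6.14%), and 0 in both Panc-1 comparisons (2.40% and 5.37%), and 0 were higher in PK-1 RARγi-1. Members with a response lower in PK-1 than in Panc-1 numbered 15 with RARγi-1 past 1.5-fold, and 0 with RARγi-1 and 7 with RARγi-2 past 3-fold, while those with a higher response numbered 2 with each inhibitor past 1.5-fold. Counts for both inhibitors, which share a control, were 11 in PK-1 (4.99% of entries), 1 in Panc-1 (6.13%) and 1 in all 4 comparisons (2.19%) past 2-fold. They became 29, 8 and 7 past 1.5-fold and 1, 0 and 0 past 3-fold. At 1.5-fold and 3-fold, shares of all entries were not counted for both inhibitors together, for members higher or for differences between the lines. Those counts therefore have no share to be read against.

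Of the 87 other ribosome biogenesis genes, 29, 60, 8 and 14 were lower past 1.5-fold (PK-1 RARγi-1, PK-1 RARγi-2, Panc-1 RARγi-1, Panc-1 RARγi-2). These are 33.3%, 69.0%, 9.20% and 16.1% of them, beside 12.3%, 24.0%, 14.3% and 22.0% of entries. The Panc-1 shares thus lay below those of all entries. In the same order, 3, 2, 7 and 8 were higher. Past 3-fold, 1, 12, 0 and 1 were lower (1.68%, 6.14%, 2.40% and 5.37% of entries), and 0, 0 and 1 were higher in the last 3 comparisons. Shares of entries higher at these thresholds were not counted. With a pseudocount of 5 TPM, which damps low genes by construction, members lower were 0 in Panc-1 RARγi-1, 2 in Panc-1 RARγi-2, 0 with both inhibitors in Panc-1 and 0 in all 4 comparisons, 1 member had a difference between the lines below -1 with RARγi-1, and 2 of the other genes were lower in PK-1 RARγi-1. The count of members with a difference below -1 with RARγi-2, 28, ran from 21 (pseudocount of 5 TPM) to 32 (no pseudocount), as several lay near -1. Replacing PPAN by PPAN-P2RY11, chosen after seeing the data, moved no count or median past these limits.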

Other observations

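The 11 listed genes of the MYC network, whose products bind the E-box or pair with those that do, were read as values. MYC itself was at 139.5, 163.2 and 156.3 TPM in PK-1 Control, RARγi-1 and RARγi-2 (log2 fold changes of 0.23 and 0.16), and at 78.4, 73.2 and 93.4 TPM in Panc-1. These are mRNA values of single libraries, and MYC protein and its binding to DNA were not measured in them. MXD1, whose product competes with MYC for MAX, was at 12.0, 102.7 and 145.6 TPM in PK-1 (3.00 and 3.50) and at 4.64, 32.3 and 35.0 TPM in Panc-1, and was higher in all treated libraries. MXD4 was at 6.46, 23.8 and 31.6 TPM in PK-1 (1.73 and 2.13) and at 13.8, 11.4 and 20.8 TPM in Panc-1. MAX was at 38.3, 44.7 and 42.6 TPM in PK-1 and at 25, 44.6 and 61.3 TPM in Panc-1. Values of the others differed in direction. MXD3 was at 38.8, 28.4 and 30.3 TPM in PK-1 (-0.44 and -0.35) and at 55.4, 39.2 and 39.1 TPM in Panc-1 (-0.49 and -0.49), and MLX at 100.1, 86.4 and 63.4 TPM in PK-1 (-0.21 and -0.65) and at 38.3, 44.5 and 33.8 TPM in Panc-1. MNT was at 9.04, 16.2 and 16.7 TPM in PK-1 and 13.4, 13.5 and 21.5 TPM in Panc-1, MXI1 at 5.89, 11.2 and 5.39 TPM and 6.78, 17.5 and 6.69 TPM, and MGA at 7.90, 11.2 and 7.78 TPM and 8.71, 6.98 and 7.16 TPM. MYCL lay at the floor in each control library and at 1.80 and 2.19 TPM in treated PK-1 and 6.44 and 3.22 TPM in treated Panc-1, and MYCN was at the floor in all 6 libraries. Whether any of these bears on the members was not tested.

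FBLL1, a relative of FBL named after its values were seen, was at the floor in all PK-1 libraries and at 10.8, 71.2 and 95.8 TPM in Panc-1 Control, RARγi-1 and RARγi-2. The other ribosome biogenesis genes held CACGTG in 24 of 75 with a promoter window, or 32.0%, beside 12.7% of entries of at least 5 TPM. In 14 of them, or 18.7% of the 75, it lay within 40 bases of the start, beside 4.23% of those entries.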
